A study of Mus musculus with 18 samples.

Results

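The insulin-like growth factor (IGF) genes Igf1, Igf1r and Igfbp1 to Igfbp7 were examined in 3 fat depots of the mouse. The genes were chosen by symbol, 9 of the 45151 symbols found in all 18 expression files. The samples were 6 of inguinal white adipocytes (iWAT), 6 of epididymal white adipocytes (eWAT) and 6 of brown adipose tissue (BAT), all from wild-type C57BL/6J males aged 16 weeks on regular chow. The white adipocytes had been freed with collagenase and taken from the floating layer, while BAT was frozen and sequenced as whole tissue, which holds vessels, stroma and nerve as well as brown adipocytes. Any comparison with BAT is thus one of depot and preparation together, which cannot be told apart. The labels do not say whether samples with the same number in their title came from the same animal, and samples are named here by that number. In bulk samples of this kind, fewer cells of a type and less RNA per cell cannot be told apart either.

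IGF1 is a growth factor that acts through the receptor tyrosine kinase IGF1R. Growth hormone induces it in liver and in many peripheral tissues, adipose tissue included. The IGF binding proteins bind the ligand outside the cell, extend its life in the circulation and limit or direct its access to the receptor, and proteases that cut them release it again. IGFBP7 binds IGF1 weakly and is often classed as an IGFBP-related protein.

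The 9 genes fell into 3 groups. Igf1, Igfbp4, Igfbp5 and Igfbp7 were abundant in white adipocytes and lower in BAT. Igfbp3, Igfbp6 and Igf1r were at low to intermediate levels, with folds of at most 2.60 between depots on read counts. Igfbp7 was 2.49-fold higher in eWAT than in BAT, so these groups differ in level and overlap in fold. Igfbp2 was found at a low level in eWAT and was close to absent in iWAT and BAT, and Igfbp1 had few or no reads in any depot. Counts are reads on the gene, and the level is the RPKM of the deposited files, in which reads are scaled to the kilobases of the row and to the total of reads of the sample.

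**Figure D1:**
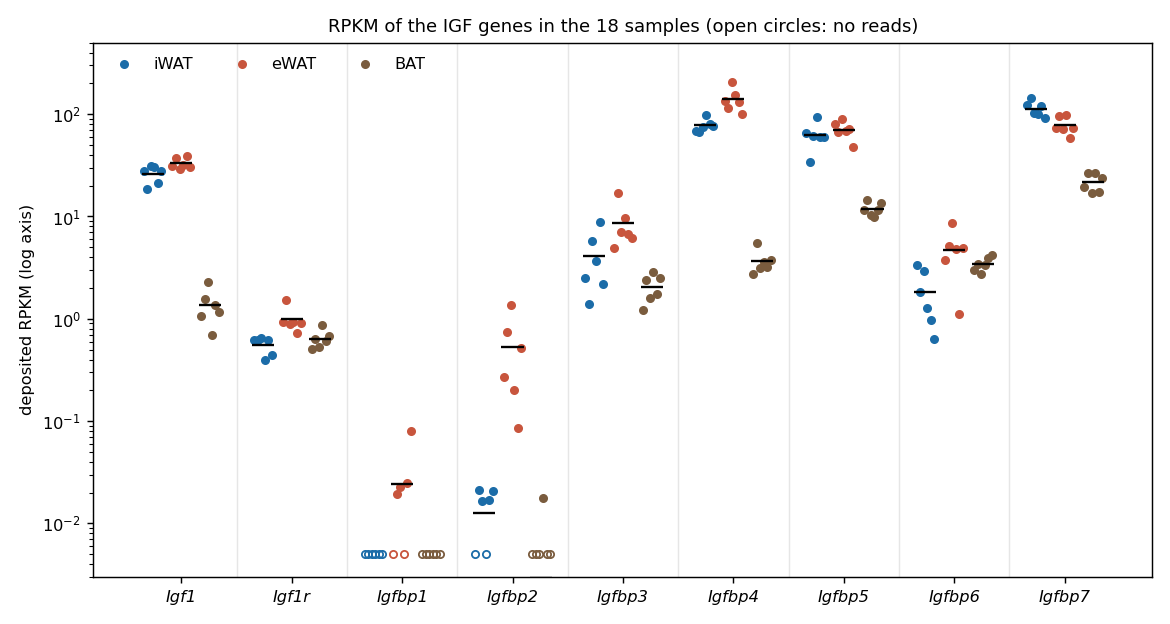
Deposited RPKM (log axis) of the 9 IGF genes in each of the 6 iWAT, 6 eWAT and 6 BAT samples. Points are samples, black lines are depot means and open circles at the bottom of the axis are samples without reads. Igf1 lay between 18.6 and 38.9 in all 12 white adipocyte samples and between 0.696 and 2.27 in the BAT samples.

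The form of the files bears on every value that follows. Each row of the iWAT and BAT files stands for a gene, its exons merged, whereas the eWAT files list transcripts one by one, and of these the one with most reads was taken. The kind of file follows the depot, so counting and depot cannot be told apart in comparisons with eWAT. For Igfbp5 and Igfbp6 the row used has the same position and length in both kinds of file.

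The deposited RPKM of a sample rests on one total of reads, between 22929576 and 34512470 over the 18 samples. Adipoq, the adiponectin gene of adipocytes, averaged 1854 ± 236.7 RPKM in iWAT, 1789 ± 508 RPKM in eWAT and 302 ± 47.7 RPKM in BAT (SD, n = 6 each). Ucp1, the uncoupling protein of brown adipocytes, averaged 1219 ± 189.5 RPKM in BAT (SD, n = 6) and was at most 5.76 in the white adipocyte samples. Some libraries stood apart. The 7 macrophage markers summed to 1955 RPKM in eWAT sample 15 and to 465 or less in the other eWAT samples, epididymis genes reached a summed RPKM of 88.4 in eWAT sample 14, and muscle genes reached 1340 in BAT sample 12. When eWAT samples 14 and 15 and BAT sample 12 were left out, as an alternative chosen after the data were seen, the numbers of IGF genes past the threshold stayed at 6, 5 and 2 in the 3 comparisons.

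The comparison of iWAT with BAT was made on read counts with edgeR's quasi-likelihood test and Benjamini-Hochberg adjustment over 19733 gene rows. The same test was used for both comparisons with eWAT, over 18383 genes. The 3 comparisons share their samples and are not independent of each other. Of the 9 genes, 7 had enough reads to be tested, and Igfbp1 and Igfbp2 did not. In iWAT against BAT, 6 of the 7 passed an adjusted p of 0.05 (4 higher and 2 lower in iWAT), where 67.6% of all rows passed (34% higher, 33.6% lower). In eWAT against BAT, 5 passed, all higher in eWAT, where 70.3% of all genes passed (35.6% higher, 34.7% lower). In iWAT against eWAT, 2 passed, 1 higher and 1 lower in iWAT, where 25.6% of all genes passed (13.4% higher, 12.3% lower). The median log2 fold change of the 7 genes was 2.12 in iWAT over BAT, 1.38 in eWAT over BAT and -0.17 in iWAT over eWAT, beside 0.01, 0.03 and 0.0028 over all rows or genes tested. Since most rows differ between BAT and either white adipocyte preparation, the sizes of the differences say more here than the number past the threshold.

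**Figure D2:**
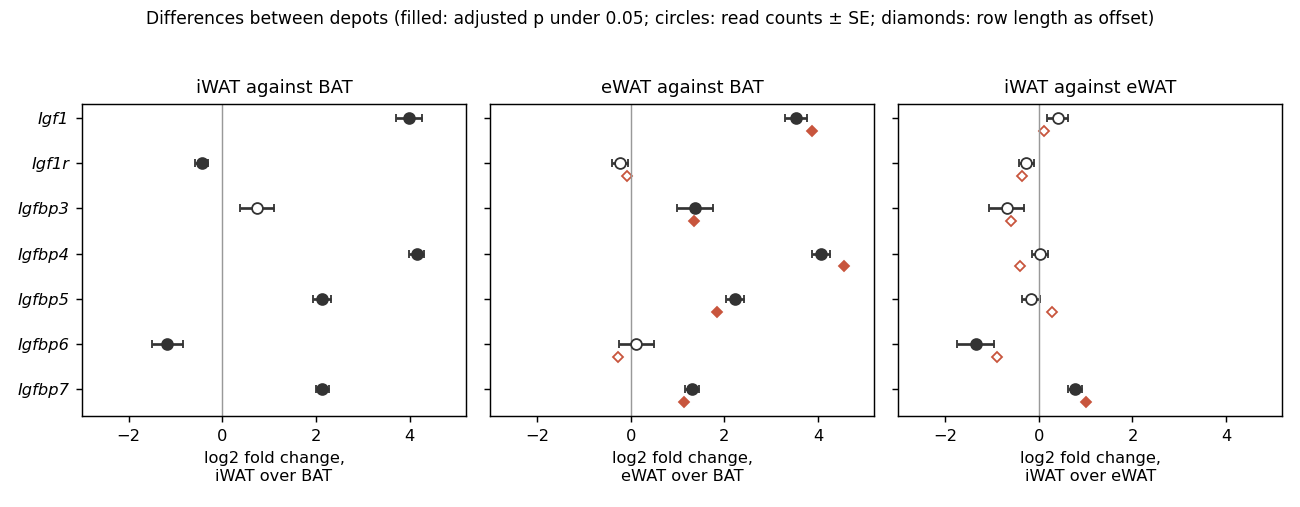
Log2 fold change of the 7 tested IGF genes in the 3 comparisons of depots. Circles are edgeR estimates from read counts with their standard error, diamonds are the same fit with the row length as an offset (comparisons with eWAT), and filled symbols have an adjusted p under 0.05. Igf1 and Igfbp4 stand near 4 on the log2 scale against BAT in both white adipocyte preparations and near 0 between them.

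Igf1 lies on the plus strand of mouse chromosome 10 (mm9, chr10:87321010-87399792) and encodes the ligand. Its transcripts start with one of 2 alternative leader exons, exon 1 or exon 2, which give different starts of the signal peptide, and they include or skip exon 5, which changes the peptide cut off from the end of the precursor. The coding parts of the leader exons and the whole of exon 5 are printed because the eWAT files separate transcripts that differ in these pieces. The sequences were read from the mm9 genome, 5′ to 3′ on the plus strand, and capitals mark a start codon.
Igf1 exon 1, coding part, chr10:87322095-87322157: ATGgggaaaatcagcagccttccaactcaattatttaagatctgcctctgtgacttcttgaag
Igf1 exon 2, coding part, chr10:87324116-87324130: ATGaccgcacctgca
Igf1 exon 5, chr10:87378043-87378094: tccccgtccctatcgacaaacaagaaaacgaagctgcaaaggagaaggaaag

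In iWAT, Igf1 had an RPKM of 18.6 to 31.2 with a median of 27.9. In eWAT the range was 29.4 to 38.9 with a median of 31.5, and in BAT it was 0.696 to 2.27 with a median of 1.26. The lowest white adipocyte sample was thus far above the highest BAT sample, while the iWAT and eWAT ranges overlapped. The merged row of Igf1 is 11818 bases long and the eWAT row 7121, and RPKM divides by this length. The RPKM of iWAT and eWAT are therefore not on an equal footing. The log2 fold change was 3.99 ± 0.27 (SE, edgeR adjusted p = 1.58e-08) in iWAT over BAT, which is 15.9-fold. In eWAT over BAT it was 3.53 ± 0.24 (SE, edgeR adjusted p = 2.28e-10), which is 11.6-fold. Between iWAT and eWAT the log2 fold change was 0.40 ± 0.21 (SE, edgeR adjusted p = 0.185), a difference that passed the threshold when the 12 samples of these depots were fitted alone (0.39, edgeR adjusted p = 0.0422) and turned to -0.36 when limma was run on log2(RPKM + 0.1).

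Macrophages also make IGF1. In eWAT the 7 macrophage markers summed to between 138 and 1955 RPKM, with 465 or less outside sample 15, beside 26.9 to 159 in iWAT and 26.2 to 59.0 in BAT. All 7 were detected in every depot. In eWAT sample 15, with the highest macrophage sum, Igf1 stood at 30.2, the second lowest value of the 6 eWAT samples. The 7 adipocyte markers summed to 9567 RPKM in that sample, the lowest sum of eWAT. On read counts 6 macrophage markers were higher and 0 lower in eWAT than in BAT, beside 35.6% and 34.7% of all genes. In iWAT 2 were higher and 0 lower than in BAT, beside 34% and 33.6% of all rows. In iWAT 0 were higher and 5 lower than in eWAT, beside 13.4% and 12.3% of all genes. Of the 5 liver markers, 2 were tested, and like Igf1 both were higher in iWAT and in eWAT than in BAT, beside 34% and 35.6% of all rows or genes. Between iWAT and eWAT, where Igf1 did not pass, both were higher in iWAT. Alb was 5.01-fold higher (edgeR adjusted p = 1.02e-06) and Serpina1a 1.65-fold (edgeR adjusted p = 0.0128). Alb, the albumin gene, averaged 10.2 RPKM in iWAT and 2.45 in eWAT, beside 0.025 in BAT. Serpina1a averaged 0.697 RPKM in iWAT and 0.593 in eWAT, beside 0.0645 in BAT. The summed level of the 5 was 9.24 to 12.8 in iWAT, 1.85 to 3.78 in eWAT and 0.06 to 0.13 in BAT, with no reads for Ttr or Fgb in iWAT and BAT and none for Fgb in eWAT. The part of these cell types in the Igf1 result was not tested.

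The eWAT files hold 18 Igf1 transcript rows. The RefSeq transcript with exon 1 and exon 5 (NM_010512) had 6071 to 9026 reads per sample, and the transcript that differs from it by lacking the 52 bases of exon 5 (NM_001111275) had 6070 to 9018. The difference, the reads that count on exon 5 alone, was 1 to 9 per sample and 32 in all. At the density of the other exons, 44.7 to 66.3 reads per sample would lie on a stretch of this length. The density on exon 5 was 2.24% to 17.4% of that on the rest, with a median of 9.19%. Neither the length of the reads nor the rule for reads that cross a splice junction is given in the sources used here, and few whole reads could lie within an exon of 52 bases, so the share of transcripts with exon 5 cannot be read from these numbers.

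For the leader exons, the RefSeq transcript that starts with exon 2 (NM_001111274) had 5644 to 8276 reads per sample. The transcript that starts with exon 1 and is otherwise the same had 427 to 750 more in each of the 6 samples. Exon 1 is 357 bases long and exon 2 is 275 bases long, and the rows do not give the reads on either exon by itself.

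**Figure D3:**
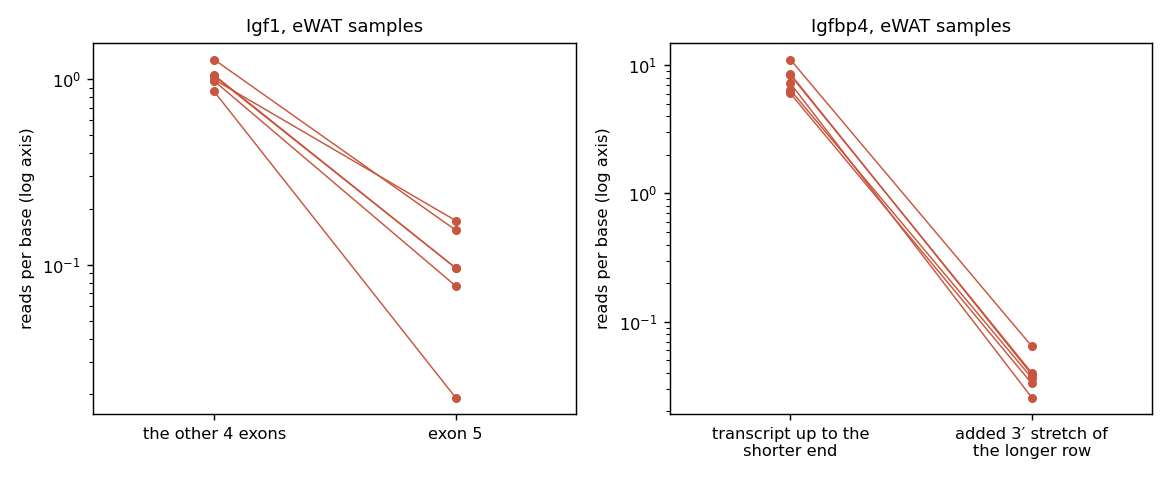
Reads per base (log axis) in the 6 eWAT samples, with one line per sample. On the left, the 4 other exons of Igf1 are set beside exon 5, and on the right the part of Igfbp4 up to the end of its shorter transcript is set beside the 3′ stretch that the most-read row adds. Every sample had fewer reads per base on exon 5 (0.0192 to 0.173) than on the rest of Igf1 (0.859 to 1.28), and on the added stretch of Igfbp4 (0.0257 to 0.0645) than on its other part (6.02 to 11.05).

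Igf1r (plus strand, chr7:75097143-75378553, mm9) encodes the receptor. Its RPKM was 0.397 to 0.645 in iWAT with a median of 0.621, 0.728 to 1.52 in eWAT with a median of 0.923, and 0.504 to 0.869 in BAT with a median of 0.621. The iWAT and eWAT ranges did not overlap on this scale, but the eWAT row is 11978 bases long and the merged row 17373. Read counts are not divided by the row length, but they still rest on which exons the row holds. On read counts the log2 fold change was -0.26 ± 0.16 (SE, edgeR adjusted p = 0.252) in iWAT over eWAT and -0.23 ± 0.16 (SE, edgeR adjusted p = 0.219) in eWAT over BAT. The latter passed without eWAT sample 8 (-0.37, edgeR adjusted p = 0.028). In iWAT over BAT, on equal rows, it was -0.44 ± 0.14 (SE, edgeR adjusted p = 0.0123), or 1.36-fold lower in iWAT. This call was lost without normalization (-0.19, edgeR adjusted p = 0.296), a setting under which the median of all rows moved to 0.27. The folds of the receptor between depots were thus at most 1.36 on read counts, beside 15.9 and 11.6 for Igf1 in the white adipocytes over BAT.

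Igfbp4 (plus strand, chr11:98902558-98915705, mm9) encodes a binding protein that inhibits IGF action and is cut by the protease PAPP-A. Its RPKM was 67.0 to 98.7 in iWAT (median 75.7), 99.98 to 207.6 in eWAT (median 132.8) and 2.72 to 5.57 in BAT (median 3.40). Every white adipocyte sample was above every BAT sample. The log2 fold change was 4.14 ± 0.17 (SE, edgeR adjusted p = 9.45e-11) in iWAT over BAT and 4.07 ± 0.19 (SE, edgeR adjusted p = 1.49e-12) in eWAT over BAT, or 17.6-fold and 16.8-fold. Between iWAT and eWAT it was 0.02 ± 0.17 (SE, edgeR adjusted p = 0.934), which covers folds of 0.811 to 1.27 at 95% confidence, and the sign of this value was not stable across settings.

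The RPKM of Igfbp4 depends on the row. The merged row is 6952 bases long and the RefSeq transcript (NM_010517) 2069, a ratio of 3.36. In the eWAT files the most-read row, a cDNA of 3824 bases, had a mean RPKM of 140.4 ± 37.6 (SD, n = 6), while the RefSeq row had 257.8 ± 69.0 (SD, n = 6). The most-read row had only 45 to 113 reads per sample more than a cDNA that ends 1752 bases earlier, out of 12533 to 23004. Per kilobase of the RefSeq transcript, a scale added after the data were seen, Igfbp4 came to 260.9 ± 38.1 in iWAT and 257.8 ± 69.0 in eWAT, beside 12.3 ± 3.35 in BAT (SD, n = 6 each). On this scale the eWAT values count the reads of the RefSeq row. The iWAT and BAT values count all reads of the merged row, which can lie outside that transcript, so they may be too high beside eWAT.

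Igfbp5 (minus strand, chr1:72904506-72921458, mm9) encodes a binding protein with affinity for the extracellular matrix, and its row is the same in all files. Its RPKM was 33.8 to 93.9 in iWAT (median 60.8), 47.9 to 89.6 in eWAT (median 69.7) and 9.79 to 14.4 in BAT (median 11.6). The white adipocyte ranges overlapped each other and lay above BAT. The log2 fold change over BAT was 2.12 ± 0.20 (SE, edgeR adjusted p = 3.35e-07) in iWAT and 2.23 ± 0.19 (SE, edgeR adjusted p = 7.25e-09) in eWAT, or 4.35-fold and 4.70-fold. Between iWAT and eWAT it was -0.17 ± 0.18 (SE, edgeR adjusted p = 0.550), with the fold of eWAT over iWAT between 0.873 and 1.44 at 95% confidence.

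Igfbp7 (minus strand, chr5:77778265-77837070, mm9) encodes the IGFBP-related protein that endothelial cells also make in quantity. Its RPKM was 91.6 to 143.8 in iWAT (median 111.3), 59.0 to 97.5 in eWAT (median 73.8) and 16.8 to 26.4 in BAT (median 21.7). The BAT samples lay below all others, and the iWAT and eWAT ranges overlapped at their ends. The log2 fold change was 2.13 ± 0.14 (SE, edgeR adjusted p = 8.61e-09) in iWAT over BAT and 1.31 ± 0.14 (SE, edgeR adjusted p = 1.82e-07) in eWAT over BAT. Igfbp7 was the 1 gene of the 7 tested that passed the threshold as higher in iWAT than in eWAT, with a log2 fold change of 0.77 ± 0.14 (SE, edgeR adjusted p = 0.000696), or 1.71-fold. With the row length as an offset the difference was also past the threshold. The summed RPKM of the 8 endothelial markers was 57.7 to 322 in iWAT, 151 to 341 in eWAT and 53.6 to 132 in BAT. The eWAT sums also rest on the lengths of single transcript rows. On read counts the median log2 fold change of the 8 was -0.67 in iWAT over BAT, beside 0.01 for all rows. It was -0.11 in eWAT over BAT and -0.52 in iWAT over eWAT, beside 0.03 and 0.0028 for all genes. The part of endothelial cells in the Igfbp7 values was not tested.

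Igfbp3 (minus strand, chr11:7106089-7113926, mm9) encodes the main carrier of IGF1 in blood. Its RPKM was 1.40 to 8.93 in iWAT (median 3.09), 4.90 to 17.0 in eWAT (median 6.84) and 1.22 to 2.90 in BAT (median 2.06). The eWAT samples were all above the BAT samples, and the iWAT samples overlapped both. The log2 fold change in eWAT over BAT was 1.38 ± 0.38 (SE, edgeR adjusted p = 0.00342). It was 0.74 ± 0.37 (SE, edgeR adjusted p = 0.0925) in iWAT over BAT and -0.69 ± 0.37 (SE, edgeR adjusted p = 0.188) in iWAT over eWAT. Each of these passed without a single sample, the former without iWAT sample 11 (0.93, edgeR adjusted p = 0.0228) and the latter without iWAT sample 14 (-1.10, edgeR adjusted p = 0.0205). Other omissions went the other way, as the value over BAT fell to 0.35 without iWAT sample 14 (edgeR adjusted p = 0.312) and the value over eWAT came to -0.39 without eWAT sample 8 (edgeR adjusted p = 0.459).

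Igfbp3 varied widely within the white adipocyte depots, with an SD of 2.83 around a mean RPKM of 4.09 in iWAT and of 4.44 around 8.59 in eWAT. The highest iWAT value, 8.93, was in sample 14 and the highest eWAT value, 17.0, in sample 8, and these 2 samples also had the highest endothelial sums of their depots, 322 and 341 RPKM. The lowest Igfbp3 of iWAT, 1.40 in sample 11, stood beside the lowest endothelial sum of that depot, 57.7. The 7 markers of mural cells, which wrap vessels, went the same way, with their highest sums in iWAT sample 14 (122.4) and eWAT sample 8 (209.6) and the lowest sum of iWAT in sample 11 (37.4). All 8 endothelial markers had reads in every depot, and 7, 8 and 7 of them averaged 1 RPKM or more in the iWAT, eWAT and BAT samples. In eWAT against BAT 1 of the 8 was higher and 0 lower, beside 35.6% and 34.7% of all genes. In iWAT against BAT 1 was higher and 3 lower, beside 34% and 33.6% of all rows. In iWAT against eWAT 0 were higher and 1 lower, beside 13.4% and 12.3% of all genes. Of the 7 mural markers, 1 was higher and 5 lower in iWAT than in BAT. In eWAT 1 was higher and 2 lower than in BAT, and in iWAT 1 was higher and 5 lower than in eWAT. The shares of all rows or genes are those given for the endothelial markers. In BAT the lowest mural sum and the lowest Igfbp3 were both in sample 6, but the highest were in samples 13 and 11. The part of endothelial and mural cells in the Igfbp3 values was not tested.

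Igfbp6 (plus strand, chr15:101974617-101979943, mm9) encodes a binding protein that prefers IGF2. Its RPKM was 0.630 to 3.35 in iWAT (median 1.55), 1.11 to 8.65 in eWAT (median 4.83) and 2.76 to 4.21 in BAT (median 3.36). The ranges overlapped in all 3 comparisons. Igfbp6 was lower in iWAT, by a log2 fold change of -1.17 ± 0.32 (SE, edgeR adjusted p = 0.00546) against BAT and of -1.34 ± 0.39 (SE, edgeR adjusted p = 0.0165) against eWAT, or 2.25-fold and 2.54-fold. The second of these calls was lost with the row length as an offset (-0.90, edgeR adjusted p = 0.0572) and with the 12 samples alone (-1.36, edgeR adjusted p = 0.0510). In eWAT over BAT the log2 fold change was 0.12 ± 0.38 (SE, edgeR adjusted p = 0.781).

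Igfbp2 (plus strand, chr1:72871066-72899048, mm9) encodes a circulating binding protein. It had 130 reads over the 6 eWAT samples, 4 over the iWAT samples and 1 over the BAT samples. The RPKM in eWAT was 0.0863 to 1.37 with a median of 0.392, above every iWAT sample (at most 0.0210) and every BAT sample (at most 0.0176). Relative to the totals of reads, eWAT was 28.3 times iWAT (95% interval 10.8 to 105) and 130 times BAT (95% interval 23.0 to 5180). These intervals are exact and cover counting error only, and the gene had too few reads to enter the test across genes.

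Mesothelium, the lining of the abdominal cavity, was followed by 6 markers, among them Upk3b, which was singled out after its values were seen. Upk3b was highest in eWAT sample 11 with an RPKM of 7.25 and lowest in sample 14 with 0.384. Igfbp2 was likewise highest in sample 11 (1.37) and lowest in sample 14 (0.0863), and so was Igfbp6 (8.65 and 1.11). Of the 6 mesothelial markers, 4 averaged 1 RPKM or more in eWAT and 1 did so in each of iWAT and BAT, namely Lrrn4. Their summed RPKM was highest in eWAT sample 11 (32.5), but lowest in sample 15 (16.5) and not in sample 14 (19.5). The sum was 3.71 to 4.59 in iWAT and 11.1 to 13.4 in BAT, and Msln and Upk1b had no reads in iWAT, nor had Upk1b in BAT. On read counts 4 of the 6 were tested. In eWAT 3 were higher and 1 lower than in BAT, beside 35.6% and 34.7% of all genes. In iWAT 1 was higher and 3 lower than in eWAT, beside 13.4% and 12.3%. Lrrn4 went the other way, at a log2 fold change of -2.45 in eWAT over BAT (edgeR adjusted p = 5.39e-12). In iWAT over eWAT it stood at 0.52 (edgeR adjusted p = 0.00424). The 9 fibroblast and progenitor markers had their lowest sums in iWAT sample 15 (100.7), eWAT sample 14 (120.0) and BAT sample 8 (60.9). These samples also had the lowest Igfbp6 of their depots. The highest sum stood with the highest Igfbp6 in iWAT (sample 7, 184.1), but not in eWAT (sample 15, 258.2) or BAT (sample 11, 90.0). Every iWAT sum was above every BAT sum, while Igfbp6 was lower in iWAT than in BAT. Of the 9 markers, 2 were higher and 4 lower in iWAT than in BAT, beside 34% and 33.6% of all rows. In eWAT 4 were higher and 3 lower than in BAT, beside 35.6% and 34.7% of all genes. In iWAT 2 were higher and 4 lower than in eWAT, beside 13.4% and 12.3%. The part of mesothelial cells and of fibroblasts in the Igfbp2 and Igfbp6 values was not tested.

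**Figure D4:**
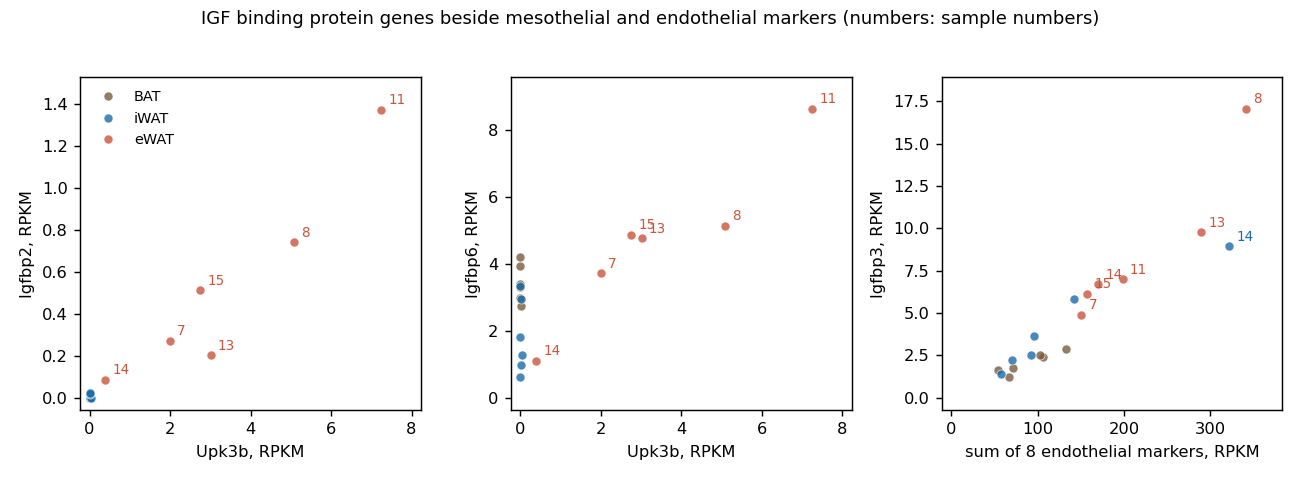
RPKM of Igfbp2 and Igfbp6 beside the mesothelial gene Upk3b, and of Igfbp3 beside the summed RPKM of 8 endothelial markers, in the 18 samples. Points are samples coloured by depot, and the numbers are the sample numbers of eWAT and of iWAT sample 14. Igfbp2 was at least 0.0863 in the eWAT samples, where Upk3b was at least 0.384, and the highest Igfbp3 values were 17.0 (eWAT sample 8) and 9.76 (eWAT sample 13).

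Igfbp1 (plus strand, chr11:7097785-7102549, mm9) encodes a binding protein that the liver makes in fasting. It had no reads in iWAT or BAT and 7 reads in eWAT, 4 of them in sample 15 and 1 each in samples 8, 11 and 14. A count of 0 allows up to 3 reads, which is an RPKM of 0.0612 to 0.0858 in the iWAT samples and 0.0570 to 0.0737 in the BAT samples. The gene was under the filter on reads. When no filter was set, its edgeR adjusted p was 0.0474 in eWAT against BAT, where 44.6% of all genes passed, and 0.111 in iWAT against eWAT, where 12.2% passed. With 7 reads, 4 of them in 1 sample, the size of a difference between depots cannot be given at this depth.

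Ordered by mean RPKM, iWAT held Igfbp7 (114), Igfbp4 (77.6) and Igfbp5 (62.4), then Igf1 (26.2), Igfbp3 (4.09), Igfbp6 (1.83) and Igf1r (0.558), with overlap between neighbours from Igfbp7 to Igfbp5 and from Igfbp3 to Igf1r. In eWAT the order was Igfbp4 (140.4), Igfbp7 (78.7), Igfbp5 (70.6), Igf1 (33.1), Igfbp3 (8.59), Igfbp6 (4.72), Igf1r (0.986) and Igfbp2 (0.531), with overlap between Igfbp7 and Igfbp5, between Igfbp3 and Igfbp6, and at the low end. In BAT it was Igfbp7 (21.7), Igfbp5 (11.9), Igfbp4 (3.67), Igfbp6 (3.44), Igfbp3 (2.06), Igf1 (1.35) and Igf1r (0.637), and neighbours overlapped from Igfbp4 to Igf1r. Igf1 thus ranked 4 of 9 in both white adipocyte preparations and 6 of 9 in BAT. Per kilobase of the RefSeq transcript, Igfbp4 came first in iWAT and eWAT and second in BAT, after Igfbp7 (25.3). In iWAT and BAT this order rests on all reads of the merged rows.

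The make-up of the binding protein genes differed between white adipocytes and BAT on both scales. By the deposited RPKM, Igfbp4 made up 29.9% ± 2.88 of the sum of the 7 binding protein genes in iWAT, 45.8% ± 5.30 in eWAT and 8.52% ± 1.25 in BAT (SD, n = 6 each). Igfbp7 made up 44.0% ± 8.12, 26.4% ± 5.48 and 50.5% ± 3.86. Per kilobase of the RefSeq transcript, Igfbp4 took 56.0% ± 3.60 in iWAT and 60.5% ± 5.06 in eWAT, beside 21.9% ± 2.70 in BAT. This scale counts all reads of the merged row in iWAT and BAT, and those of the RefSeq row in eWAT. On the same scale Igfbp7 took 28.8% ± 6.06 in iWAT and 19.1% ± 4.49 in eWAT, beside 45.1% ± 3.62 in BAT. Igfbp6 had a share of 8.12% ± 1.35 in BAT by the deposited RPKM, beside 0.71% ± 0.43 in iWAT and 1.52% ± 0.66 in eWAT. No test was made of these shares, which do not overlap between BAT and either white adipocyte preparation for Igfbp4 and Igfbp6.

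The genes around the ligand and its binding proteins were described by 5 lists that hold 40 genes, of which 32 had enough reads to be tested. In iWAT against BAT 18 were higher and 6 lower, beside 34% and 33.6% of all rows. In eWAT against BAT 18 were higher and 10 lower, beside 35.6% and 34.7% of all genes. In iWAT against eWAT 8 were higher and 4 lower, beside 13.4% and 12.3%. With the row length as an offset, an alternative for these lists chosen after the data were seen, the counts with eWAT became 19 higher and 7 lower against BAT (40.4% and 33.6% of all genes), and 10 higher and 6 lower for iWAT against eWAT (25.9% and 27.5%).

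Of the 8 genes listed for the growth hormone input to Igf1, 5 were higher and 0 lower in iWAT than in BAT (median log2 fold change 1.39, beside 0.01 for all rows, of which 34% were higher and 33.6% lower). The list holds the receptor gene Ghr as well as inhibitors of the signal such as Socs3, so its counts do not measure the strength of this input. In eWAT 4 were higher and 2 lower than in BAT (median 0.79, beside 0.03, with 35.6% and 34.7% of all genes), and with the row length as an offset 6 were higher and 0 lower. The 2 lower were Stat5a (-0.58, edgeR adjusted p = 0.00673) and Stat5b (-0.24, edgeR adjusted p = 0.0288). With the offset they came to -0.09 (edgeR adjusted p = 0.659) and 0.51 (edgeR adjusted p = 0.000106). Neither passed in iWAT against BAT (edgeR adjusted p = 0.297 and 0.0769). Ghr, the growth hormone receptor, had an RPKM of 90.5 to 147 in iWAT, 183 to 397 in eWAT and 10.5 to 16.4 in BAT. No white adipocyte sample overlapped BAT, and the log2 fold change was 2.88 ± 0.16 (SE, edgeR adjusted p = 2.27e-09) in iWAT and 2.76 ± 0.19 (SE, edgeR adjusted p = 2.77e-10) in eWAT. Between iWAT and eWAT the value was 0.07 ± 0.18 (SE, edgeR adjusted p = 0.814) on read counts and -0.89 (edgeR adjusted p = 0.000521) with the row length as an offset.

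Socs3, an inhibitor of cytokine and growth hormone receptor signaling and a gene that responds quickly to stress, had a larger difference. Its RPKM was 126 to 352 in iWAT, 81.4 to 153 in eWAT and 0.341 to 0.951 in BAT. The log2 fold change was 8.45 ± 0.38 (SE, edgeR adjusted p = 2.68e-10) in iWAT over BAT, 7.16 ± 0.35 (SE, edgeR adjusted p = 2.92e-12) in eWAT over BAT and 1.24 ± 0.27 (SE, edgeR adjusted p = 0.0023) in iWAT over eWAT. The white adipocytes had been through collagenase digestion and BAT had not, and the part of digestion cannot be told apart from that of depot.

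**Figure D5:**
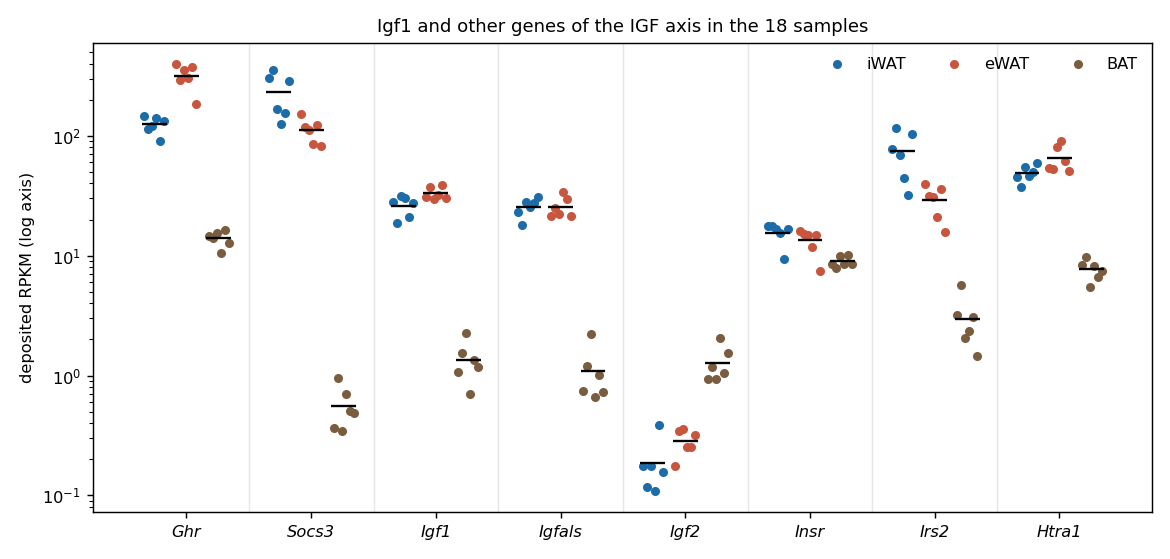
Deposited RPKM (log axis) of Igf1 and of 7 other genes of the IGF axis in the 18 samples. Points are samples and black lines are depot means. Ghr, Socs3, Igf1, Igfals, Irs2 and Htra1 were higher in every white adipocyte sample than in any BAT sample, Igf2 was lower, and the eWAT level of Ghr (mean 317) is that of 1 transcript row.

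Among the other ligand and receptor genes, 2 were higher and 1 lower in iWAT than in BAT, with 4 tested, beside 34% and 33.6% of all rows. Igf2, the second ligand, had the opposite pattern to Igf1, with an RPKM of 0.110 to 0.390 in iWAT, 0.175 to 0.358 in eWAT and 0.933 to 2.07 in BAT. The BAT samples were all above the others, and the log2 fold change was -2.99 ± 0.29 (SE, edgeR adjusted p = 6.64e-07) in iWAT over BAT and -2.75 ± 0.28 (SE, edgeR adjusted p = 7.12e-08) in eWAT over BAT. Igf2r, which clears IGF2, had mean RPKM values of 6.51, 9.61 and 5.40 in iWAT, eWAT and BAT, and its log2 fold change in iWAT over BAT was 0.0068 ± 0.084 (SE, edgeR adjusted p = 0.949). It was higher in eWAT, with a log2 fold change of 0.38 ± 0.15 (SE, edgeR adjusted p = 0.0313) over BAT and of -0.42 ± 0.15 (SE, edgeR adjusted p = 0.0463) in iWAT over eWAT, but neither passed with the row length as an offset (0.12, edgeR adjusted p = 0.452, and -0.10, edgeR adjusted p = 0.569). Insr, the insulin receptor, had mean values of 15.5, 13.4 and 8.94 and was 1.44-fold higher in iWAT than in BAT (edgeR adjusted p = 0.00537). Lrp1, a multiligand receptor that also binds IGFBP3, was 3.04-fold higher in iWAT and 2.46-fold higher in eWAT than in BAT (edgeR adjusted p = 4.18e-06 and 7.68e-06).

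Of the genes for the ternary complex, the proteases that cut binding proteins and their inhibitors, 9 of 13 were tested. In iWAT against BAT 4 were higher and 2 lower, where 67.6% of all rows passed in either direction, and in eWAT against BAT 6 were higher and 3 lower, where 70.3% of all genes passed. Igfals, which encodes the acid-labile subunit that joins IGF1 and IGFBP3 in blood, had an RPKM of 17.9 to 31.1 in iWAT, 21.4 to 34.3 in eWAT and 0.657 to 2.24 in BAT. It was 19.2-fold higher in iWAT (edgeR adjusted p = 1.95e-08) and 16.7-fold higher in eWAT (edgeR adjusted p = 2.51e-10) than in BAT. Pappa, the gene of the protease that cuts IGFBP4, had few reads, with 0 to 6 reads per iWAT sample, 3 to 11 per eWAT sample and 13 to 29 per BAT sample, and its log2 fold change was -3.74 ± 0.47 (SE, edgeR adjusted p = 7.21e-06) in iWAT over BAT. For Pappa the value was -2.25 ± 0.41 (SE, edgeR adjusted p = 9.65e-05) in eWAT over BAT. In iWAT over eWAT it was -1.56 ± 0.55 (SE, edgeR adjusted p = 0.0439), and this call was lost with the row length as an offset (-1.24, edgeR adjusted p = 0.0649).

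Htra1, a serine protease that cuts IGFBP5, averaged 48.6 RPKM in iWAT and 65.1 in eWAT, beside 7.67 in BAT, and was 5.28-fold and 4.78-fold higher in iWAT and eWAT than in BAT (edgeR adjusted p = 1.47e-09 and 3.12e-10). Ctsd, a lysosomal protease, had mean values of 126, 737 and 93.4 and was higher in eWAT than in BAT by 0.70 ± 0.19 on the log2 scale (SE, edgeR adjusted p = 0.00354), a value that became 2.26 with the row length as an offset. Its eWAT values ranged from 468 to 1247, with the highest in sample 15, the sample with the macrophage sum of 1955.

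Of the 9 docking and adaptor genes below the receptor, 8 were tested, and 6 were higher and 1 lower in iWAT than in BAT, beside 34% and 33.6% of all rows. Irs2, the insulin receptor substrate gene, had an RPKM of 32.1 to 117 in iWAT, 15.9 to 39.7 in eWAT and 1.44 to 5.70 in BAT. It was 20.8-fold higher in iWAT than in BAT (edgeR adjusted p = 2.43e-07) and 2.59-fold higher in iWAT than in eWAT (edgeR adjusted p = 0.00579). Grb2 was 2.11-fold higher in iWAT and 2.67-fold higher in eWAT than in BAT (edgeR adjusted p = 1.07e-08 and 1.15e-06). Grb14, an adaptor that inhibits the insulin receptor, was 1.89-fold higher in iWAT than in BAT (edgeR adjusted p = 2.55e-05) and 1.97-fold lower in eWAT than in BAT on read counts (edgeR adjusted p = 1.83e-06), but its eWAT value turned to a log2 fold change of 0.51 (edgeR adjusted p = 0.00157) with the row length as an offset. Of the 3 tested genes for Igf2 mRNA binding and IGFBP-like proteins, 1 was higher and 2 were lower in iWAT and in eWAT than in BAT, where 67.6% and 70.3% of all rows or genes passed.

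Across the 18 samples, the profiles most like those of the IGF genes were found by the root mean square difference of mean-centred log2(RPKM + 0.1), among 13873 genes. The samples share depot, preparation and file kind, and the measure is a description. Igf1 was closest to Sucnr1 (0.27), the succinate receptor gene, and to Igfals (0.27). Igfbp4 was closest to Gpt2 (0.25) and Glb1l2 (0.27), Igfbp5 to Fam114a1 (0.23) and Fam164a (0.23), and Igfbp7 to Ly6e (0.20) and Lrrc61 (0.23). Igfbp3 was closest to Fscn1 (0.24) and Spry1 (0.27). The nearest genes to Igfbp6, Rcn3 (0.53) and Rnase4 (0.54), were at a larger distance than those of the other 5. Sucnr1 averaged 37.0 ± 7.74 RPKM in iWAT and 53.4 ± 11.97 in eWAT, beside 2.23 ± 0.62 in BAT (SD, n = 6 each).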

How the data were processed

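RNA-seq was analysed in 6 samples each of iWAT adipocytes, eWAT adipocytes and BAT tissue. The labels and methods name the NEBNext Ultra kit, the mm9 genome and the Genomatix Genome Analyzer, and the submitters' processing notes list cutadapt (1.16) and HISAT2 (2.1.0). The annotation, strand setting and counting rule are not given in the sources used here. The authors deposited a read count per row, not normalized, and an RPKM per row, which equals the count divided by row length and by 1 total per sample. There are 53445 merged gene rows (iWAT, BAT) or 189660 transcript rows (eWAT). A second, less-read Igfbp3 row was not used.

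What follows was computed here. Rows that reached 10 reads in 6 or more samples were tested with edgeR (4.0.16, TMM, the totals behind the RPKM as library size) in R (4.3.3), using 12 samples for iWAT against BAT and 18 otherwise. An adjusted p under 0.05 was the threshold. Standard errors were derived from the F statistic. The code was tested on simulated data. DESeq2 (1.42.0), limma (3.58.1) on log2(RPKM + 0.1) and log2(RPKM + 1), other filters and normalizations, a length offset, shared rows (27301) and left-out samples were tried. P-values measure the spread between samples. Intervals and floors (3 reads) cover counting error only, since reads were not collapsed by molecular identifiers. The genes and lists were chosen with earlier results of these data known. Besides the 9 IGF genes, 13 of 40 genes of the IGF axis lists were named by rule, those averaging 10 RPKM or more in a depot and Igf2, Igfals, Ghr, Insr, Igf2r and Pappa at any level, together with the 2 genes most like each IGF gene whose mean RPKM reached 1. Stat5a and Stat5b were named outside this rule.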

Additional observations from a re-analysis of the deposited data

Results flagged for a closer look

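A Dixon test at the 95% level was applied to 58 combinations of a depot with an IGF gene or an axis gene named by rule. In 6 of them 1 sample lay further from the others than the test allows, where chance would give about 2.9. Igf1r in eWAT was 1.52 RPKM in sample 8 and 0.728 to 0.932 in the others, and sample 8 also had the highest endothelial sum of eWAT (341 RPKM). Igfbp4 in BAT was 5.57 RPKM in sample 7 and 2.72 to 3.79 in the others. Igfals in BAT was 2.24 RPKM in sample 8 and 0.657 to 1.21 in the others, and sample 8 also had the highest Igf1 of the BAT samples (2.27). In iWAT, sample 14 stood apart in both directions, with an Igf2 of 0.390 RPKM above the others (0.110 to 0.177) and an Insr of 9.34 RPKM below them (15.4 to 17.8). Grb2 in eWAT was 51.3 RPKM in sample 15 and 21.9 to 28.8 in the others, and sample 15 also had the highest macrophage sum (1955 RPKM).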

How the results depend on the processing

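Of 498 recomputed log2 fold changes of the IGF genes, 467 kept their direction and their side of the threshold, 9 newly passed it, 7 lost it and 15 changed sign. None of the values for Igf1, Igfbp4, Igfbp5 and Igfbp7 against BAT changed in either way. The cause of the changes below was not tested. The limma fits used RPKM, which divides by the row length. For Igf1, Igf1r and Igfbp4 the merged row is longer than the eWAT row. In eWAT over BAT, Igf1r turned to 0.094 without normalization and to 0.54 and 0.27 with limma at a pseudocount of 0.1 and 1, and Igfbp6 turned to -0.26 with the row length as an offset and to -0.12 without eWAT sample 11 (range over single samples left out -0.12 to 0.33). In iWAT over eWAT, Igf1 turned to -0.36 and -0.34 and Igfbp4 to -0.83 and -0.82 with limma at a pseudocount of 0.1 and 1. With the offset, Igfbp4 turned to -0.40 and Igfbp5 to 0.28. Igfbp4 also turned to -0.052 without iWAT sample 13, to -0.035 without eWAT sample 8 and to -0.051 without eWAT sample 15 (range over single samples left out -0.052 to 0.16), and to -0.091 without eWAT samples 14 and 15 and BAT sample 12.

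The number of all genes past the threshold moved by more than 1.5 times with a minimum log2 fold change of 1 (6345 in iWAT against BAT, 7155 in eWAT against BAT and 1968 in iWAT against eWAT), with rows shared by both kinds of file (3888 and 737 of 5733 tested in the comparisons with eWAT), and in iWAT against eWAT with limma (9637 and 9487) and with the offset (9815). The number of IGF genes moved with shared rows to 1 of 2 tested in eWAT against BAT and in iWAT against eWAT, and in the latter to 5 with limma at either pseudocount, to 1 with a minimum log2 fold change of 1 and to 1 with the offset. The number of axis genes moved with shared rows to 2 of 2 in eWAT against BAT and 0 of 2 in iWAT against eWAT, and to 6 in the latter with a minimum log2 fold change of 1. With no filter, Igfbp2 also entered each comparison and Igfbp1 those with eWAT, and 6, 7 and 3 IGF genes passed, among them Igfbp1 in eWAT against BAT and Igfbp2 in both comparisons with eWAT. Without normalization beyond the library size, 65.8% of the calls in iWAT against BAT and 66.3% in eWAT against BAT were higher in white adipocytes, beside 50.3% and 50.6%, and with limma 65.2% and 77.9%, while in iWAT against eWAT 10.2% were higher in iWAT, beside 52.2%.

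Leaving out single samples gave 12307 to 13291, 12087 to 12782 and 3881 to 5157 genes and 6 to 7, 5 to 6 and 2 to 3 IGF genes in the 3 comparisons. With the replicate block (the number in the titles as a block), 11711, 11401 and 3153 genes and 6, 5 and 2 IGF genes passed, and no call of an IGF gene changed. Of the pairs with a shared number, 1 of 4, 0 of 4 and 1 of 5 deviated together at a correlation over 0.1 (iWAT and BAT, eWAT and BAT, iWAT and eWAT). Of the pairs with different numbers, 6 of 32, 6 of 32 and 9 of 31 did. So few shared numbers cannot decide whether the number marks the animal, and the labels do not say. The main fits did not pair the samples.

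Of 66 recomputed mean levels, 9 moved by more than 1 SD. Per kilobase of the RefSeq transcript, Igf1 became 43.4 in iWAT and 2.25 in BAT, Igf1r 0.810 and 0.924, Igfbp4 260.9, 257.8 (eWAT) and 12.3, and Igfbp7 in iWAT 132.4. The iWAT and BAT values on this scale count all reads of the merged row. Rescaled by TMM factors, Igfbp5 in BAT became 13.9. Igfbp1 and Igfbp2 were limited by depth, with at most 7 and 130 reads in a depot.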
